A study of Mus musculus with 3 samples.

Results

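The genes examined were 8 components of the receptors and the signalling chain through which natural killer (NK) cells respond to interleukin 2 and interleukin 15: the receptor chains Il2ra, Il2rb, Il2rg and Il21r, the kinases Jak1 and Jak3, and the transcription factors Stat5a and Stat5b. They were taken by symbol from the 25906 genes of the deposited tables, and each symbol matched 1 row. NK cells (live, NK1.1+NKp46+) had been sorted from lung and blood of wild-type female mice, 9 weeks old and of C57BL/6 background per the methods, and sequenced in 3 droplet libraries. The naive mice received no tumor cells, and the other mice were taken 6 h or 14 days after 100000 PyMT cells, a mouse mammary tumor line, had been given intravenously. Lungs were perfused and enzymatically digested, whereas blood was drawn before perfusion and not digested, so digestion and tissue cannot be told apart. Lung and blood cells of a time point shared a library and carried different hashtag antibodies. The labels do not tell the cells of single mice apart, so each of the 6 groups (3 time points, 2 tissues) is 1 sample. Time points could not be tested against each other, and lung was tested against blood over the 3 libraries.

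IL-2 and IL-15 signal through the same pair of chains, the beta chain encoded by Il2rb and the common gamma chain encoded by Il2rg. IL-15, presented by neighbouring cells, keeps NK cells alive, and the alpha chain encoded by Il2ra turns the shared pair into a high-affinity receptor for IL-2. JAK1 binds the beta chain and JAK3 the gamma chain, and both phosphorylate STAT5A and STAT5B, which enter the nucleus and bind a palindromic DNA motif called GAS. The IL-21 receptor also uses the gamma chain. Among the genes that STAT5 switches on is Cish, whose product dampens the same receptor.

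Short sequences are shown because the results below turn on these genes. The first set is the GAS motif (TTC, any 3 bases, then GAA, which reads the same on both strands) in the promoters of the feedback genes Cish and Socs3. Promoter windows reach from 250 bases before to 50 bases after a listed start (RefSeq, GRCm38.p6). The motif was found in 8.30% of all 32851 windows. It was found in none of the 9 windows of the 7 member genes in the table, which holds none for Il2rb, in 2 of the 7 feedback genes with a window, in 5 of 13 other cytokine receptor genes and in 1 of 9 listed target genes. The counts for these lists are of genes, and a gene can have several windows, so they cannot be set beside the share of windows. Capitals mark the motif. The Cish stretch (chr9:107296654-107296683, plus strand) lies at the listed start and within a Cish exon of GENCODE M21. The Socs3 stretch (chr11:117969507-117969525, minus strand) lies upstream of the start and in no exon.
Cish: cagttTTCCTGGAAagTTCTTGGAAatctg
Socs3: cagccTTCTTAGAAgggag
The second set compares the neighbouring genes Stat5a and Stat5b, whose levels ran in parallel. The longest run that the 250 bases before the second listed start of each gene share is 16 bases long, in capitals, and of all 32851 windows only these 2 hold it on either strand. The Stat5a stretch (chr11:100860445-100860474, plus strand) overlaps an exon of a longer Stat5a transcript, and the Stat5b stretch (chr11:100822571-100822600, minus strand) overlaps none.
Stat5a: tttgaggAGGAAATCGCTGCTCTctgctcc
Stat5b: ttttagaAGGAAATCGCTGCTCTttgcttc
A shared run or a motif match is a description of the letters and says nothing of whether a factor binds there.

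After the filter on genes and mitochondrial counts, 2069 to 4680 cells per group were assigned to a tissue, with 16936897 to 35922737 UMIs (unique molecular identifiers, 1 per captured transcript) in a group. UMIs of a gene were summed over the cells of a group and divided by the group's total, and are given as counts per 1000000 UMIs (CPM). NK markers were abundant throughout (7 of 7 detected in every group, summed level 13481 to 19776 CPM). Of these 7, Ncr1, the gene for NKp46, was 1.5-fold or more lower in lung than in blood at all 3 times, by the ratios described below. Of all genes 2.31%, 2.03% and 2.38% were lower to that degree (naive, 6 h, 14 days). B cell markers summed to at most 0.511 CPM. Myeloid markers summed to 13.5, 27.5 and 15.0 CPM in naive, 6 h and 14-day lung and to 24.0, 48.3 and 90.7 CPM in blood. T cell markers summed to 187 to 295 CPM, and the 6 ILC1 markers to 42.4 to 52.1 CPM in the naive and 6 h groups, 141 in 14-day lung and 102 in 14-day blood. Red cell markers summed to 89.0 CPM in 14-day lung and at most 0.362 CPM elsewhere. Free RNA could make up at most 4.93% of a group's UMIs. Ratios are given on the log2 scale after subtraction of the median ratio of the genes that reached 10 CPM in either group of a pair, and a gene was called higher or lower when it lay 1.5-fold or more from that median (0.585 on the log2 scale). Intervals are 95% intervals for counting error only, and do not cover differences between mice or between cells.

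**Figure D1:**
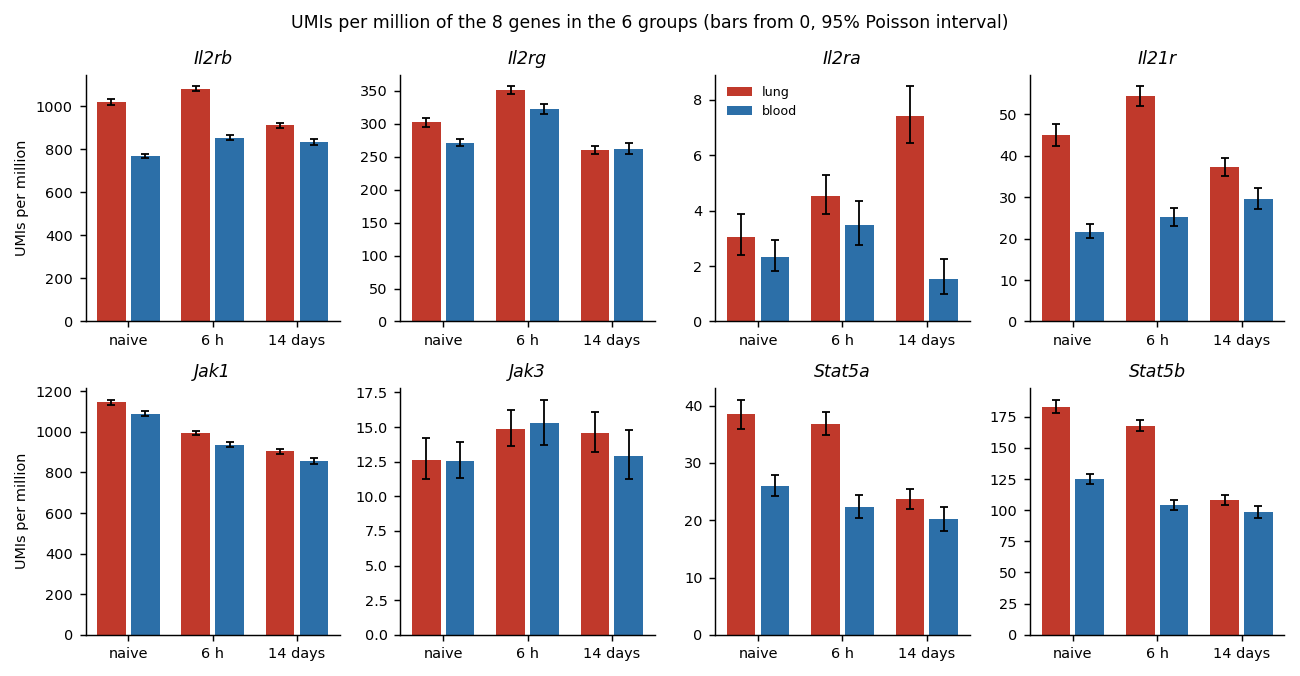
CPM (y axis, from 0) of each of the 8 genes in the naive, 6 h and 14-day libraries (x axis), with lung in red and blood in blue, 1 sample per bar and 95% Poisson intervals. Il21r, Stat5a and Stat5b stand higher in lung than in blood in the naive and 6 h libraries, and Il2ra stands highest in 14-day lung at 7.42.

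Il2rb (chromosome 15 from 78479256 to 78495271, GRCm38) had 1019 CPM in naive lung and 766 in naive blood, 1081 and 854 at 6 h, and 911 and 834 at 14 days. Lung stood above blood at each time, by a log2 ratio of 0.50 in naive mice (95% interval 0.48 to 0.53), 0.44 at 6 h and 0.23 at 14 days, none of which reached 1.5-fold. In blood Il2rb stood 0.21 above the naive level at 6 h and 0.28 at 14 days. Nearly every cell carried it, since 86.7% to 94.8% of cells thinned to 3000 UMIs held a UMI, and free RNA could account for a UMI in at most 17.1% of cells.

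Il2rg (chromosome X from 101264378 to 101268255), the chain shared with the receptors for IL-4, IL-7, IL-9 and IL-21, had 302 and 272 CPM in naive lung and blood, 351 and 322 at 6 h, and 259.6 and 263 at 14 days. Its highest values were those of the 6 h library, in both tissues, at log2 ratios over naive of 0.29 in lung (0.25 to 0.33) and 0.30 in blood (0.26 to 0.35). At 14 days the CPM intervals of lung and blood overlapped, and the log2 ratio of lung over blood from the median of all genes was 0.09 (0.04 to 0.14). A UMI of each chain was found in 54.8% of thinned naive lung cells, and the product of the separate shares was 54.5%.

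Il21r (chromosome 7 from 125603429 to 125633570) differed most between tissues in naive mice and at 6 h. It had 45.0 CPM in naive lung against 21.7 in naive blood, 54.3 against 25.2 at 6 h, and 37.3 against 29.6 at 14 days. It was thus 2.21-fold higher in naive lung than in naive blood (log2 ratio 1.14, interval 1.00 to 1.29) and 2.31-fold higher at 6 h, while at 14 days the log2 ratio of 0.44 (0.28 to 0.59) did not reach the call. On this scale the narrower gap lay mostly on the blood side. In blood the gene stood 1.52-fold above the naive level at 14 days (log2 ratio 0.60, 0.43 to 0.77), and in lung it stood near it, at -0.08 (-0.21 to 0.04). Without subtraction of the median these log2 ratios were 0.45 in blood and -0.27 in lung.

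Il2ra (chromosome 2 from 11642807 to 11693193) was scarce everywhere, below 10 CPM in every group, and so was not among the genes that could be called. It had 3.07 CPM in naive lung (2.40 to 3.86) and 2.33 in naive blood (1.82 to 2.95), 4.54 and 3.49 at 6 h, 7.42 in 14-day lung (6.45 to 8.49) and 1.54 in 14-day blood (1.00 to 2.25). The 14-day lung sample was the highest and the 14-day blood sample the lowest of the 6, and their counting intervals were far apart. The variance of Il2ra UMIs per cell was 3.65 times the mean in 14-day lung and 2.22 times in 14-day blood. These intervals do not take in that unevenness between cells. The log2 ratio of 14-day over naive cells was 1.46 in lung (1.07 to 1.87) and -0.45 in blood (-1.16 to 0.22). In cells thinned to 3000 UMIs the 14-day blood ratio changed sign and was slightly positive. At 6 h the log2 ratio over naive was 0.64 in both tissues. These values rest on few cells. In 14-day lung 209 UMIs came from 102 of 3575 cells, of which 14 held 4 or more, and in 14-day blood 26 UMIs came from 17 cells. The 10 cells with most Il2ra UMIs held 32.5% of them in 14-day lung and 73.1% in 14-day blood. A cell with the transcript held 1.53 UMIs on average in naive lung and 2.05 in 14-day lung, before thinning. Among cells thinned to 3000 UMIs the share with Il2ra was 0.557% in naive lung, 0.927% at 6 h and 1.22% at 14 days, against 0.466%, 0.917% and 0.339% in blood. Free RNA could give at most 0.0363% of cells a UMI, below each of these shares.

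The cells with an Il2ra UMI in 14-day lung were deeper than the others (median 11768 against 6910 UMIs). The NK receptor gene Ncr1, which encodes NKp46, stood at 463 CPM against 675 (94.1% and 93.4% of cells with a UMI), the gene for NK1.1, Klrb1c, at 558 against 1076, the NK transcription factor gene Eomes at 132 against 227, Prf1 at 436 against 807, and Itgam, which encodes the maturation marker CD11b, at 55.6 against 187. The chemokine gene Xcl1 stood at 3668 CPM against 728, the granzyme gene Gzmc at 411 against 58.1, the activation receptor gene Tnfrsf9 at 473 against 169, and the IL-7 receptor gene Il7r at 139 against 27.4. Cish stood at 64.2 against 28.9 and Il21r at 82.2 against 35.1, whereas Il2rb stood at 797 against 917. Cd3e, which encodes a CD3 chain of the T cell receptor complex, had a UMI in 5.88% of them against 0.777% of other cells. The T cell receptor constant gene Trac had one in 17.6% against 11.0%. Cells with an Il7r UMI, 200 of the 3575, held 85 of the 209 Il2ra UMIs. Outside them Il2ra stood at 4.76 CPM (3.96 to 5.68) in 14-day lung and 2.47 (1.87 to 3.21) in naive lung. In blood these values were 0.681 (0.340 to 1.22) and 2.14 (1.64 to 2.75). Without all cells that carried an ILC1 marker (Cxcr6, Il7r, Tmem176a or Tmem176b), 8.42% of 14-day lung cells and 4.92% of naive lung cells, the log2 ratio in lung was 0.98 (0.50 to 1.48) in place of 1.46. Xcl1 and Tnfrsf9 were higher in cells with an Il2ra UMI in the other groups too, at 4624 against 376 and 1081 against 120 CPM in naive blood. Prf1 was lower in such cells in each lung group and higher in each blood group, at 1503 against 1232 CPM in 14-day blood. These genes were chosen for description after their values had been seen.

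The kinases differed little. Jak1 (chromosome 4 from 101152367 to 101265282) had 1145 and 1090.0 CPM in naive lung and blood, 994 and 936 at 6 h, and 904 and 856 at 14 days. It was highest in the naive and lowest in the 14-day library within each tissue, at log2 ratios of -0.15 in lung and -0.19 in blood at 14 days. Jak3 (chromosome 8 from 71676296 to 71690575) had 12.7 and 12.6 CPM in naive lung and blood, 14.9 and 15.3 at 6 h, and 14.6 and 12.9 at 14 days. It stood above the naive level at 6 h by 0.31 in lung (0.10 to 0.52) and 0.34 in blood (0.12 to 0.55), and at 14 days by 0.39 in lung (0.17 to 0.61). The 2 kinase genes therefore lay on opposite sides of the median of all genes over naive in lung and blood at both times, with an interval that reached 0 for Jak3 in 14-day blood alone. Jak3 overlaps the gene Insl3 on the same strand, so reads in the shared stretch cannot be told apart. Il2ra, Il2rg and Jak1 each overlap a predicted gene in the same way.

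The transcription factor genes Stat5b (chromosome 11 from 100780731 to 100850724) and Stat5a (chromosome 11 from 100859351 to 100885169) are neighbours that point away from each other, 8626 bases apart. Stat5b had 183 CPM in naive lung and 125 in naive blood, 168 and 104 at 6 h, and 108 and 98.5 at 14 days. Stat5a had 38.5 and 26.0 CPM, then 36.9 and 22.4, then 23.7 and 20.1. Both genes were high in lung of naive mice and at 6 h and low in the other groups, with 14-day lung close to blood. Lung over blood, Stat5a was 1.58-fold higher in naive mice (1.43 to 1.74) and 1.76-fold at 6 h (1.59 to 1.96). Stat5b was 1.56-fold higher in naive mice (1.49 to 1.63) and 1.72-fold at 6 h (1.64 to 1.81). The naive intervals of both genes thus reached below 1.5-fold. Without subtraction of the median the naive log2 ratios were 0.57 and 0.55, under the call. At 14 days the log2 ratios were 0.34 (0.15 to 0.53) for Stat5a and 0.24 (0.16 to 0.33) for Stat5b. Over naive, 14-day lung stood at -0.51 (-0.66 to -0.37) for Stat5a and -0.57 (-0.64 to -0.50) for Stat5b, just inside the 1.5-fold line, and 14-day blood at -0.21 and -0.19.

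The ratio of Stat5a to Stat5b UMIs was nearly the same in all groups. It was 0.210 in naive lung and 0.207 in naive blood, 0.220 and 0.215 at 6 h, and 0.219 and 0.204 at 14 days, and the 6 intervals overlapped. For comparison, the ratio of Il2rg to Il2rb UMIs ran from 0.285 in 14-day lung to 0.378 in 6 h blood. The transcripts of the 2 genes share 8.21% of Stat5a's and 11.0% of Stat5b's stretches of 50 bases, and some of these lie in their last 1000 bases, so reads there could have been lost or assigned to the other gene. The last 72 bases of Stat5a also overlap the end of Stat3, which is read from the other strand.

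**Figure D2:**
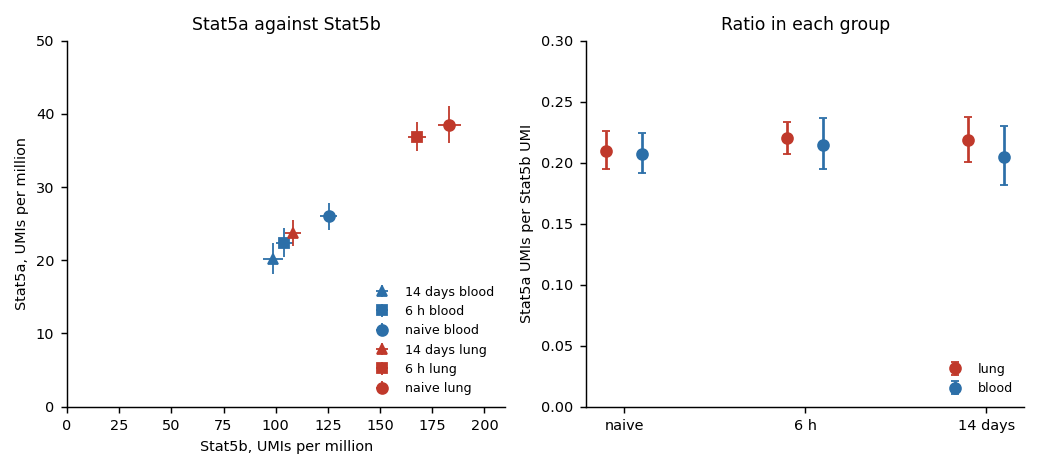
Left, Stat5a against Stat5b in CPM in the 6 groups (both axes from 0, 95% Poisson intervals), and right, Stat5a UMIs per Stat5b UMI by library with 95% intervals, lung in red and blood in blue. The points lie along 1 line through a range from 98.5 to 183 CPM of Stat5b, and the ratio stays between 0.204 and 0.220.

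Across the comparisons, 3 of the 7 genes that could be called were higher in lung than in blood in naive mice and at 6 h (Il21r, Stat5a and Stat5b each time), and none was lower. Of all genes tested in naive mice 10.3% were called, 7.98% higher and 2.31% lower, and at 6 h 9.51% were, 7.48% higher and 2.03% lower. At 14 days 0 of 7 were called, against 9.63% of all genes, 7.24% higher and 2.38% lower. The median of the 7 log2 ratios was 0.50 in naive mice, 0.44 at 6 h and 0.24 at 14 days. All 7 lay above the median of all genes at each time, but the interval of Jak3 held 0 in naive mice and at 6 h. Without subtraction of the median, Jak3 at 6 h (-0.04) and Il2rg at 14 days (-0.02) stood lower in lung than in blood. The 10 immediate early and heat shock genes Fos, Fosb, Jun, Junb, Egr1, Ier2, Atf3, Hspa1a, Hspa1b and Dnajb1, chosen after values had been seen, summed to 1687 to 1774 CPM in the lung groups and 483 to 534 CPM in the blood groups. Junb made up 904 to 1075 CPM of the lung sums, and Egr1 was lower in naive lung than in naive blood (23.8 against 48.1 CPM). Within lung, the heat shock genes Hspa1a and Hspa1b stood at 1.15 and 3.20 CPM in naive mice and 22.1 and 41.9 at 14 days, and Jun at 106 and 217. The part of these genes in the differences between tissues and times was not tested.

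Lung and blood form 3 pairs by library, so the tissue difference could be tested over the 3 time points together, with edgeR's quasi-likelihood test on the summed counts and library as a block. Of the 8 members 4 were higher in lung at an adjusted p under 0.05 and 0 lower, where 18.9% of 12653 genes were called, 11.8% higher and 7.12% lower. They were Stat5a (log2 ratio 0.61 ± 0.10 SE, adjusted p = 0.0123), Il21r (0.94 ± 0.15, adjusted p = 0.0132), Il2rb (0.39 ± 0.07, adjusted p = 0.019) and Stat5b (0.56 ± 0.10, adjusted p = 0.0191), each higher in lung in 3 of 3 libraries. Il2rg (0.19, adjusted p = 0.0648), Jak1 (0.18, adjusted p = 0.105), Il2ra (1.04, adjusted p = 0.128) and Jak3 (0.15, adjusted p = 0.299) did not pass. The p-values rest on the spread of the tissue difference among 3 libraries of different time points. For each gene edgeR draws that spread toward the trend over the tested genes, so the p-values do not measure the gene's own spread alone. These p-values depended on the libraries, as did the calls over all genes. In edgeR 0 members passed without the 6 h library, where 498 of 12733 genes did. There 5 members had an unadjusted p under 0.05, beside 2538 of all genes, and the lowest adjusted p was 0.0886 for Il21r. Il21r and Stat5a passed without the naive library, where 895 of 12693 genes did. Without the 14-day library 7 members passed, where 5781 of 12795 genes did. Scaling by library totals in place of TMM factors turned the split of all called genes from 1491 higher and 901 lower to 1155 and 2234, with the same 4 members called higher.

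Over naive, 0 of 7 were called at 6 h in lung (0.812% of all genes, 0.762% higher and 0.05% lower) and 0 of 7 at 6 h in blood (0.542%, 0.431% higher and 0.111% lower). At 14 days 0 of 7 were called in lung, where 12.5% of all genes were (7.7% higher, 4.82% lower). In blood 1 of 7, Il21r, was called higher, where 2.86% of all genes were called (2.17% higher, 0.69% lower). The 6 h and 14-day comparisons share their naive samples. The median log2 CPM ratio of all genes, which was subtracted, was -0.19 in lung and -0.15 in blood at 14 days. Without that subtraction Il21r in 14-day blood is under the call, and Stat5a and Stat5b in 14-day lung are called lower.

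**Figure D3:**
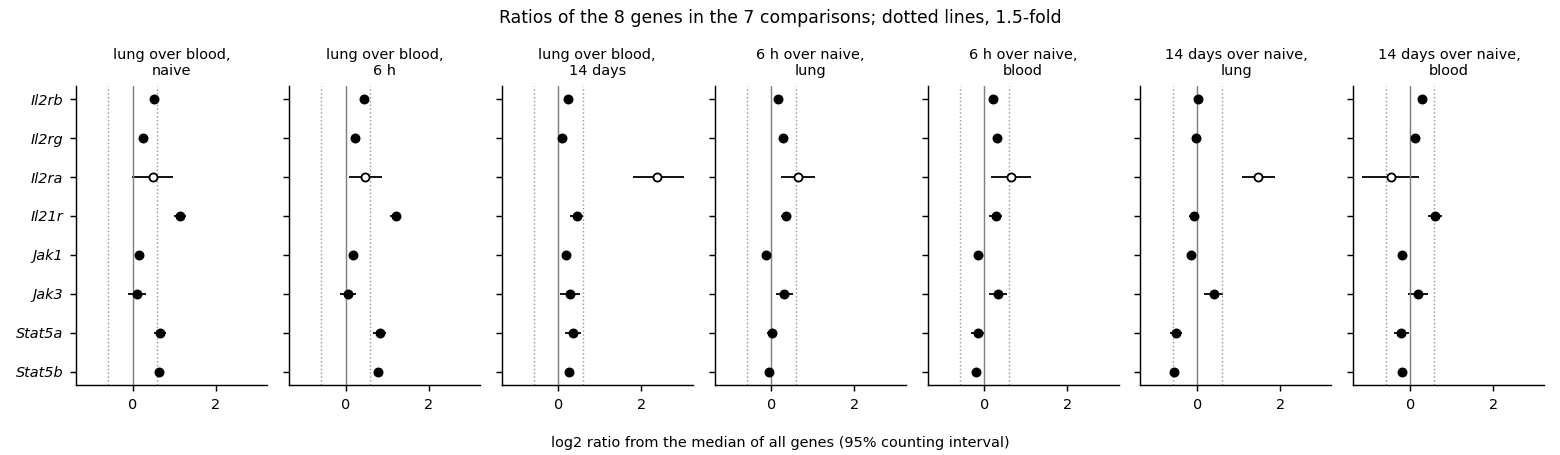
Log2 ratios from the median of all genes (x axis, points with 95% counting intervals) of the 8 genes (rows) in the 7 comparisons (panels), with dotted lines at 1.5-fold and an open point for Il2ra, which was under 10 CPM. Il21r, Stat5a and Stat5b lie past the right line in lung over blood in naive mice and at 6 h, and Il2ra reaches 2.38 in lung over blood at 14 days.

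The other genes of the pathway showed where such differences were shared. Of 7 ligand genes only Il15 passed 10 CPM, at 15.1 to 22.0 CPM, and the 6 others stayed at or below 2.60 CPM. The gene for the chain that presents IL-15, Il15ra, stood between 10.5 and 18.1 CPM and was called lower in lung than in blood at 6 h (-0.69). Of the 17 other cytokine receptor genes, 6 of 14 tested were higher and 1 lower in naive lung than in naive blood, beside 7.98% and 2.31% of all genes. Those with the largest ratios after Il12rb2 were the signalling chain gene Il6st (1.23), the interferon-gamma receptor gene Ifngr1 (1.10) and Il4ra (1.01), whose product pairs with the common gamma chain, and the lower gene was Il12rb1 (-0.70). Il12rb2 encodes a chain of the IL-12 receptor and had the largest ratio, at 1393 against 360.4 CPM (log2 ratio 2.04). It stood at 1195 against 313 CPM at 6 h and 468 against 288 at 14 days, so that 14-day lung over naive lung came to -1.39 (-1.42 to -1.36). Called higher in 14-day lung over naive were Il12rb1 (0.94), Il7r (0.74) and Il10ra (0.64).

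Among the 7 other JAK and STAT genes, Stat3 and Stat4 were higher in lung than in blood in naive mice, at log2 ratios of 1.95 and 0.84, and at 6 h, at 2.00 and 0.94. Stat4, which carries the IL-12 signal, had 1278 CPM in naive lung, 762 in naive blood, 1125 and 629 at 6 h, and 657 and 556 at 14 days. It was called lower in 14-day lung over naive (-0.77) together with Stat3 (-0.59). Over the 6 groups and among 4206 genes, Stat4 was also the gene whose log2 CPM most resembled that of Stat5b (Pearson r = 0.998) and the 3rd closest to Stat5a (r = 0.997), behind Stk11 and Riok1 (r = 0.998 each). For Stat5b, Rhoq and Slbp followed (r = 0.997 and 0.996). The 6 points share libraries, and 385 genes reached r = 0.9 with Stat5b and 402 with Stat5a, so the pattern was common. For Il21r, where 102 genes reached r = 0.9, the close genes included Atp5a1 and Dnajc8 (r = 0.984 and 0.981). Both moved little, from 292 to 319 and from 165 to 186 CPM, since r does not measure the size of a change. For Il2ra, where 10 genes reached r = 0.9, the close genes were Ssr3, the early activation marker Cd69 and Plscr1 (r = 0.995, 0.977 and 0.956). From 14-day blood to 14-day lung Ssr3 ran only from 68.4 to 74.4 CPM, and Cd69 from 23.3 to 77.5.

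Feedback genes damp cytokine receptors and their JAKs. Cish, described above with its GAS sites, had 7.54 and 10.2 CPM in naive lung and blood, 14.9 and 15.4 at 6 h, and 30.5 and 16.9 at 14 days. It was called higher over naive in all 4 comparisons, by log2 ratios of 1.06 and 0.65 at 6 h and 2.20 (1.97 to 2.45) and 0.89 (0.65 to 1.12) at 14 days, in lung and blood in turn. Of the 8 feedback genes tested at 14 days in each tissue, 3 were called higher and 0 lower over naive. In lung these were Cish, Socs1 (0.94) and Ptpn6 (0.75), which encodes a phosphatase that acts on JAKs, and in blood Socs2 (0.99), Socs1 (0.90) and Cish. The share of all genes called higher was 7.7% in lung and 2.17% in blood. The median of the list was 0.19 in lung and 0.05 in blood, beside -0.08 and 0.10 for the 7 members. Socs3, the other feedback gene with a GAS motif shown above, was called higher in lung than in blood at all 3 times (2.74, 2.44 and 2.10).

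Of 12 genes listed as IL-15 or STAT5 targets, all tested, 1 was called higher at 6 h in each tissue, namely Pim2. Over all genes 0.762% were called higher at 6 h in lung and 0.431% in blood. Pim2, a survival kinase gene, had 31.0 and 34.1 CPM in naive lung and blood, 56.3 and 62.6 at 6 h, and 79.6 and 69.7 at 14 days, so that both tissues stood 0.93 above naive at 6 h. At 14 days in lung Pim2 (1.55), Myc (1.47) and the survival gene Bcl2 (0.76) were called higher and the perforin gene Prf1 lower (-0.62), and in blood Pim2 (1.19) and the granzyme gene Gzmb (0.82) were called higher. The shares over all genes at 14 days were 7.7% higher and 4.82% lower in lung, and 2.17% higher and 0.69% lower in blood. The list's median lay between 0.17 and 0.29 in these 4 comparisons with naive. Lung over blood, the list's median was 0.03 in naive mice, 0.06 at 6 h and 0.07 at 14 days. In naive mice Osm (0.66) was called higher in lung and Bcl2l1 (-0.95) lower. At 6 h Bcl2l1 alone was called, lower at -0.99. At 14 days Myc (0.85) and Bcl2 (0.68) were called higher, and Bcl2l1 (-0.80) and Ccnd2 (-0.64) lower. Of all genes 7.98%, 7.48% and 7.24% were called higher in lung, and 2.31%, 2.03% and 2.38% lower (naive, 6 h, 14 days). The list was drawn up with earlier results of these data known.

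**Figure D4:**
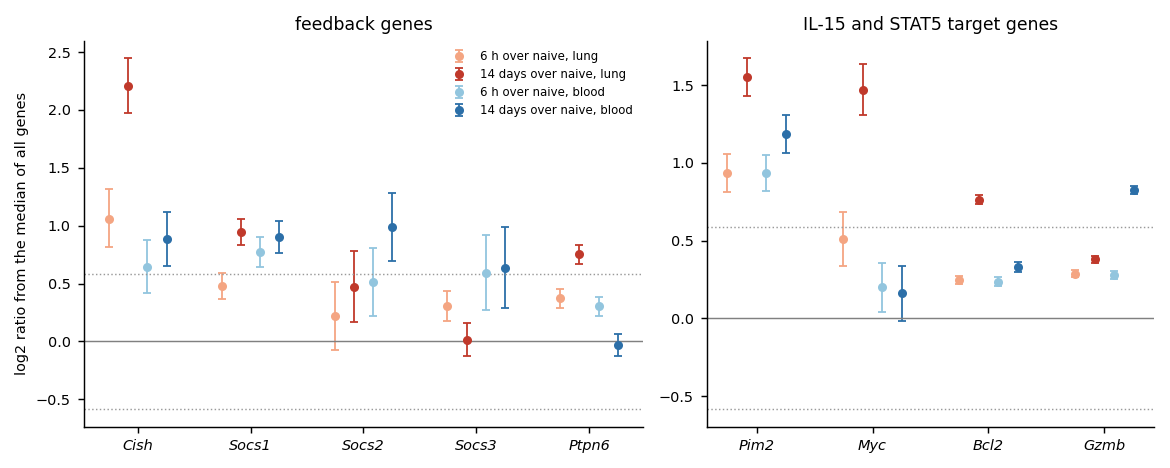
Log2 ratios over naive from the median of all genes (y axis, 95% counting intervals, dotted lines at 1.5-fold) of 5 feedback genes and 4 listed target genes at 6 h and 14 days in lung (light and dark red) and blood (light and dark blue). Cish reaches 2.20 and Pim2 1.55 in 14-day lung.

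The PI3K and mTOR branch and the adaptor and MAPK branch, which the same receptors feed, were read in the same way. Of 19 PI3K and mTOR genes, Pik3r1, Foxo1 and Rptor were called higher in lung than in blood in naive mice (1.22, 0.87 and 0.69) and at 6 h (1.13, 0.75 and 0.73), Pik3cd was called lower in naive mice (-0.60), and at 14 days only Inpp5d was called, higher at 0.65. Pik3r1, which encodes the regulatory subunit of PI3K, had 951 CPM in naive lung and 453 in 14-day lung against 437 and 364 in blood. In 14-day lung over naive, 4 genes of this list were called lower (Pik3r1 at -0.88, Foxo1 at -0.76, Rptor at -0.72 and Foxo3 at -0.66), and 0 were called in blood. Over all genes 4.82% were called lower in lung, and 2.86% were called in blood. Of 13 adaptor and MAPK genes 0 were called between lung and blood at any time. The share over all genes was 10.3% in naive mice, 9.51% at 6 h and 9.63% at 14 days. Those of this list called lower in 14-day lung over naive included Gab2 (-0.81). The nutrient uptake genes, which growing lymphocytes need, showed a tissue difference at all times. Of 5 tested, Tfrc, Slc3a2, Slc7a5 and Slc2a1 were called higher in lung than in blood at all 3 times, and 0 were called over naive at either time in either tissue. The share of all genes higher in lung was 7.98%, 7.48% and 7.24% (naive, 6 h, 14 days). Over naive, 0.812% and 0.542% of all genes were called at 6 h in lung and blood, and 12.5% and 2.86% at 14 days.

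NK cells mature from a CD27+ to a CD11b+ stage, and in these data the stages were approximated by transcripts of Cd27 and Itgam in cells thinned to 3000 UMIs. Cells with Cd27 and without Itgam made up 6.71% to 8.95% of a group, and cells with Itgam and without Cd27 36.0% to 52.8%, lowest in 14-day lung. A cell without a UMI of a marker may still have expressed it, so these are mixtures rather than stages.

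Within the cells with Itgam and without Cd27, the tissue differences in naive mice were close to those over all cells, at 1.03 for Il21r (0.83 to 1.24), 0.74 for Stat5a and 0.63 for Stat5b, and at 6 h they were 1.03, 0.99 and 0.73. Within the cells with Cd27 and without Itgam they were 1.38, 0.84 and 0.49 in naive mice. The lower Stat5 level of 14-day lung was also present in both kinds of cells. Stat5b stood at -0.48 (-0.58 to -0.37) from naive in cells with Itgam and at -0.74 (-0.997 to -0.49) in cells with Cd27 only, and Stat5a at -0.63 and -0.93. In the 120 cells with both transcripts Stat5a stood at -1.02 (-1.93 to -0.18), and Stat5b at -0.18 with an interval that held 0 (-0.50 to 0.14). Cells with both Klrg1 and Cx3cr1, transcripts of mature circulating NK cells, gave -0.60 for Stat5a and -0.54 for Stat5b in lung at 14 days. Their tissue differences in naive mice were 0.66 for Il21r, 0.68 for Stat5a and 0.52 for Stat5b. Cycling cells numbered 7 to 23 per group, too few to describe the scarcer members.

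Il21r differed between the 2 kinds of cells at 14 days. In naive lung Il21r stood at 41.3 CPM (71 UMIs) in cells with Cd27 only and at 42.5 in cells with Itgam only. At 14 days the values were 62.3 and 29.8, a log2 ratio between the 2 kinds of 1.19 (0.91 to 1.47). In blood they were 16.9 and 22.2 in naive mice and 48.9 and 24.3 at 14 days, a log2 ratio of 1.04 (0.61 to 1.45). Over naive, where all lung cells gave a value near 0 at 14 days, the ratio was 0.81 (0.41 to 1.23) in lung cells with Cd27 only and -0.38 (-0.60 to -0.16) in cells with Itgam only. Il2ra in lung stood at 5.23 CPM (9 UMIs) in naive and 18.2 (51 UMIs) in 14-day cells with Cd27 only, and at 2.20 (25 UMIs) and 1.96 (18 UMIs) in cells with Itgam only. At 6 h in lung the order was the other way (2.43 against 3.25), with overlapping intervals. In blood Il2ra stood higher in cells with Cd27 only at each time, on few UMIs. It had 5.07 CPM (12 UMIs) against 1.65 (25 UMIs) in naive mice, and 5.45 (12 UMIs) against 1.22 (12 UMIs) at 6 h. At 14 days it had 6.01 (8 UMIs) against 0.400 (3 UMIs). When cells with an ILC1 marker were left out of those with Cd27 only, Il21r in lung still stood 0.85 above naive (0.39 to 1.34) and 20 Il2ra UMIs remained at 14 days (8.56 CPM, 5.23 to 13.2) against 0 in the 209 naive lung cells, which allows up to 2.53 CPM. In blood these cells held 0 Il2ra UMIs at 14 days (110 cells, up to 3.76 CPM) and 9 in naive mice (4.31 CPM). Their Il21r level in blood was 35.7 CPM (35 UMIs, 24.9 to 49.6) at 14 days, in place of 48.9 (65 UMIs). In naive mice it was 13.9 (29 UMIs), in place of 16.9. The 14-day interval overlapped that of blood cells with Itgam only (20.86 to 28.04), where cells with ILC1 markers were kept.

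Itga1 and Pmepa1 are among the genes that the study reads as signs of tissue residency and TGF-beta imprinting. The 254 cells of 14-day lung with both transcripts made up 7.18% of that group, and such cells at most 0.323% of any other. Against all other cells of 14-day lung they stood at 0.23 for Il21r (-0.10 to 0.55), -0.32 for Il2ra (-1.29 to 0.52), -0.14 for Stat5a and -0.08 for Stat5b, all with intervals that held 0. Without them the log2 ratio of 14-day over naive lung was 1.47 for Il2ra, -0.49 for Stat5a and -0.56 for Stat5b. Cells that lacked a UMI of either gene after thinning may still have expressed it, and they were counted among the others. Before thinning, 23.7% of the 14-day lung cells without an Il2ra UMI held an Itga1 UMI and 41.0% a Pmepa1 UMI. The part of tissue residency or TGF-beta imprinting in the 14-day values was not tested.

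**Figure D5:**
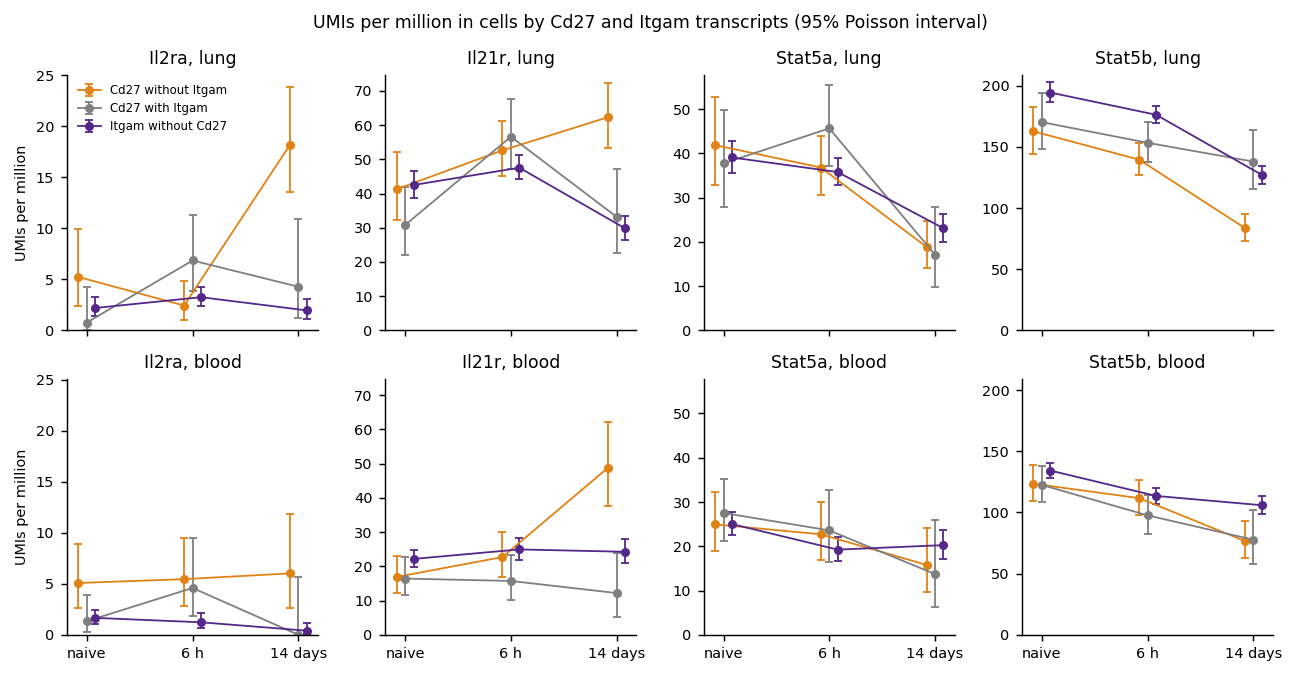
CPM (y axis, from 0, 95% Poisson intervals) of Il2ra, Il21r, Stat5a and Stat5b by library (x axis) in cells with Cd27 only (orange), with both transcripts (grey) and with Itgam only (purple), in lung (top) and blood (bottom). At 14 days Il21r stands at 62.3 in lung cells with Cd27 only against 29.8 in those with Itgam only, while Stat5b is lower than in naive lung in both.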

How the data were processed

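The authors deposited raw UMI counts of genes and hashtags, unfiltered, from Cell Ranger (7.0.1 per the labels, 7.1.0 per the file headers) on GRCm38.p6 with GENCODE M23, without normalization. Gene positions come from GENCODE M21, which holds 25461 of the 25906 gene IDs.

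Barcodes with 800 to 5000 genes and at most 6% mitochondrial counts were kept, as in the study. A cell was given the tissue whose tag held at least 90% of its tag counts, with B0304 read as lung and B0306 as blood from the order in which the methods name them. Of the kept cells, 342, 158 and 141 (naive, 6 h, 14 days) had no such tag and were left out, which removes doublets between tissues but not within one. The libraries shared 16, 11 and 6 cell barcodes by pair. Counts were summed per group, since cells are not replicates. CPM have exact Poisson intervals, shares Clopper-Pearson intervals and ratios exact conditional intervals. For thinning, 6 to 86 cells per group under 3000 UMIs were left out.

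A test of lung over blood over the 3 libraries, added after the data had been seen, used edgeR 4.0.16 (R 4.3.3; quasi-likelihood, TMM, library as block, genes kept by filterByExpr, Benjamini-Hochberg adjustment), with DESeq2 1.42.0 as an alternative. Lung and blood of a time point pair by their shared library. Named genes were all members and up to 4 genes per list past 1.5-fold in a comparison, taken by size, plus the 3 genes most like each member that spanned 1.5-fold over the groups (Pearson r of log2 CPM, genes reaching 50 CPM). Some genes that this rule names are not reported here. Genes described in Il2ra cells and the stress genes were chosen after their values were seen. Members and lists were chosen with earlier results of these data known. Script steps used Python 3.11.15, numpy 2.4.6, scipy 1.17.1, pandas 2.3.3 and matplotlib 3.10.9, and were tested on simulated data.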

Additional observations from a re-analysis of the deposited data

Results flagged for a closer look

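Members whose log2 ratio over naive had opposite signs in lung and blood are listed here, with 1 sample in each group. None of these differences was tested. At 14 days Il2ra stood at 1.46 in lung and -0.45 in blood, a difference of 1.91, and in cells thinned to 3000 UMIs the blood value was 0.14. Il21r stood at -0.08 in lung and 0.60 in blood, a difference of -0.69. Il2rg stood at -0.03 and 0.10, a difference of -0.14, and both values are negative (-0.22 and -0.05) without subtraction of the median. At 6 h Stat5a stood at 0.01 in lung and -0.16 in blood, a difference of 0.17, with a counting interval from -0.03 to 0.37, and without that subtraction the lung value was -0.06.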

How the results depend on the processing

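The number of members past 1.5-fold moved by over 1.5 times in 6 of the 7 comparisons, all but lung over blood at 6 h. Without centring it was 1 (Il21r) for lung over blood in naive mice, 2 (Stat5a and Stat5b, lower) for 14-day lung and 0 for 14-day blood over naive. With at least 50 CPM 4 or 5 members could be called, and 1 (Stat5b) in naive lung over blood, 2 (Il21r and Stat5b) in lung over blood at 6 h and 0 in 14-day blood were. At a 5/4-fold threshold it was 4 for lung over blood in naive mice and at 6 h, with Il2rb added, 2 for lung over blood at 14 days, 1 (Il21r) at 6 h in lung, 1 (Jak3) at 6 h in blood and 3 for 14-day lung. After thinning it was 1 (Jak3) at 6 h in blood and 0 for 14-day blood. With free RNA subtracted, Stat5b alone was called, lower, in 14-day lung (count 1). The Il21r call in 14-day blood was also lost (count 0) without the 5% of cells with most UMIs and, in an alternative chosen after seeing the data, without cells with ILC1 markers. Leaving out cells with markers of other cell types, also chosen after seeing the data, moved no count. Of the 56 member ratios, none that was called reversed. Without centring 29 left their intervals and 5 changed sign, with shifts of at most 0.19. Thinning took 10 outside (largest shift of any ratio 0.77), and leaving out cells with ILC1 markers 2 (0.98). In the edgeR fit of lung over blood over the 3 libraries, added after seeing the data, 4 members were called. With no replicate block for the library it was 2 (Il21r and Stat5a), and 0 to 7 with each library left out in turn. Over all genes 2392, 1247 and 498 to 5781 were called in these settings. Counts of 4 were also given by library totals, both other filters and DESeq2. There is 1 library per time point, and Il2ra had few UMIs.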
